A study of Mus musculus with 6 samples.

Results

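Chemokines and their receptors were followed gene by gene in single nuclei of mouse liver. Members were all genes of the feature list whose symbol is Ccl, Ccr, Cxcl or Cxcr directly followed by a number, together with Xcl1, Xcr1, Cx3cl1, Cx3cr1 and the atypical receptors Ackr1 to Ackr4. This rule gave 67 of 32285 features. Of these, 46 had at least 30 unique molecular identifiers (UMIs, each standing for 1 captured RNA molecule) in sum over all barcodes of the 6 libraries, and are described below. They comprise 15 of 30 CC ligands, 12 of 14 CXC and other ligands, 8 of 11 CC receptors, 7 of 8 CXC and other receptors and all 4 atypical receptors. The members just inside this limit were Ccr4 with 31 UMIs, Ccl28 with 33 and Ccl12 with 49. Those just outside it were Ccr10 with 22, Ccl20 with 21 and Ccl22 with 18. Ccl1, Ccl17, Ccl26, Cxcl3, Cxcr1, Ccl11, Ccr1l1 and Ccr8 had 1 to 14 UMIs. Another 10 features had none, namely Cxcl15 and the listed copies of Ccl21b, Ccl21c and Ccl27b, with further copies of Ccl19, Ccl21a and Ccl27a on scaffolds or chromosomes.

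The study sequenced liver nuclei of DIAMOND mice, which descend from a cross of 129A1/SvIm with C57BL/6J, a line that develops fatty liver and then liver tumors on a Western diet, to follow hepatic immune cells along that course. All animals were males, and each of the 3 groups held 2 mice in separate cages. Ctrl mice ate chow for 40 weeks, Pre-T mice received the Western diet (high-fat food with sugar water) for 40 weeks and were taken before tumors formed, and Post-T mice received it for 48 weeks and were taken after tumors had formed. The Post-T titles name tumor while their source is given as liver, so whether tumor tissue entered these libraries is not known. All mice started their diets at 2 months of age, so the Post-T mice were older than the others when taken. Diet and cage change together between Ctrl and Pre-T, and time on diet, age, tumors and cage between Pre-T and Post-T. All of these change between Ctrl and Post-T, and their parts in a difference cannot be told apart.

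Chemokines are small secreted proteins that set the paths of migrating leukocytes. They bind G protein-coupled receptors on the arriving cells, and many ligands share a receptor, such as Ccl2, Ccl7 and Ccl12 for Ccr2, Cxcl9 and Cxcl10 for Cxcr3, and Ccl19 and Ccl21a for Ccr7. Atypical receptors bind chemokines without this signaling and remove or transport them. In liver, stromal cells, endothelial cells, hepatocytes and Kupffer cells (the resident macrophages) are all known sources.

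The 6 libraries held 5638 to 8469 barcodes and 22453658 to 40307564 UMIs each. After the filter of the study 39012 of 41882 nuclei remained, with a median of 1623 to 2805 UMIs per nucleus. Nuclei were clustered without the member genes and named from marker genes, so each class name stands for nuclei like that type. This left 12567 nuclei unnamed, among them clusters that carried markers of 2 classes. No doublet caller was run, and 181 barcode sequences occurred in more than 1 library. Levels are given as CPM, counts per 1000000, the UMIs of a gene scaled to that total of UMIs over all genes in the same nuclei of the same mouse, with mouse 1 before mouse 2 in each group. Each mouse had more than 10 nuclei in 7 classes, which were tested: hepatocytes, endothelial cells, fibroblasts (with stellate cells), macrophages, monocytes, T cells and B cells. In macrophages the 12 macrophage markers summed to 7164 to 7693 CPM in the Ctrl mice, 5239.9 to 6432 in the Pre-T mice and 2353 to 3205 in the Post-T mice, against 27.7 to 36.7 CPM in the Ctrl mice, 109 to 331 in the Pre-T mice and 9.52 to 175 in the Post-T mice in hepatocytes. RNA of hepatocytes was present in every class: their 10 markers summed to 12882 to 13925 CPM in the Ctrl mice, 2812 to 9105 in the Pre-T mice and 3058 to 11339 in the Post-T mice within macrophages.

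The 67 members held 96346 UMIs in all. Cxcl12 took 19.7% of them. CC ligands held 27254 UMIs, CXC and other ligands 35280, CC receptors 13745, CXC and other receptors 7508 and atypical receptors 12559. Summed over all kept nuclei, the ligands reached 320.2 and 326 CPM in the Ctrl mice, 371 and 494 in the Pre-T mice and 333 and 102 in the Post-T mice. The ligand sum was highest in both Pre-T mice and lowest in Post-T 2, and Post-T 1 lay between the Ctrl and Pre-T mice. This order rested on a few genes. Without Ccl25 and Cxcl12 the sums were 72.3 and 84.4 CPM in the Ctrl mice, 182 and 303 in the Pre-T mice and 207 and 35.4 in the Post-T mice. Post-T 1 then lay above Pre-T 1, and its sum includes Cxcl13, which was high in that mouse only. Receptors summed to 97.8 and 136 CPM in the Ctrl mice, 343 and 288 in the Pre-T mice and 89.3 and 69.6 in the Post-T mice. The receptor sums thus separated all 3 groups, with Pre-T highest and Post-T lowest. In sums over all nuclei, fewer cells of a type and less RNA per cell cannot be told apart.

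The class of a member was the class with the highest mean CPM over the mice with more than 10 such nuclei. Over all named classes, neutrophils were highest for 8 members and fibroblasts for 7, but neutrophils had only 80 nuclei in all. When each nucleus was named on its own by its markers, 30 of 46 members kept their class, though this naming left 23695 nuclei unnamed and only 234 as hepatocytes. Among the 7 tested classes, macrophages and T cells led for 9 members each, fibroblasts for 7, endothelial cells for 6, and hepatocytes, B cells and monocytes for 5 each. For 11 of 46 members the same class was highest in all 6 mice, and for 20 in at least 5.

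**Figure D1:**
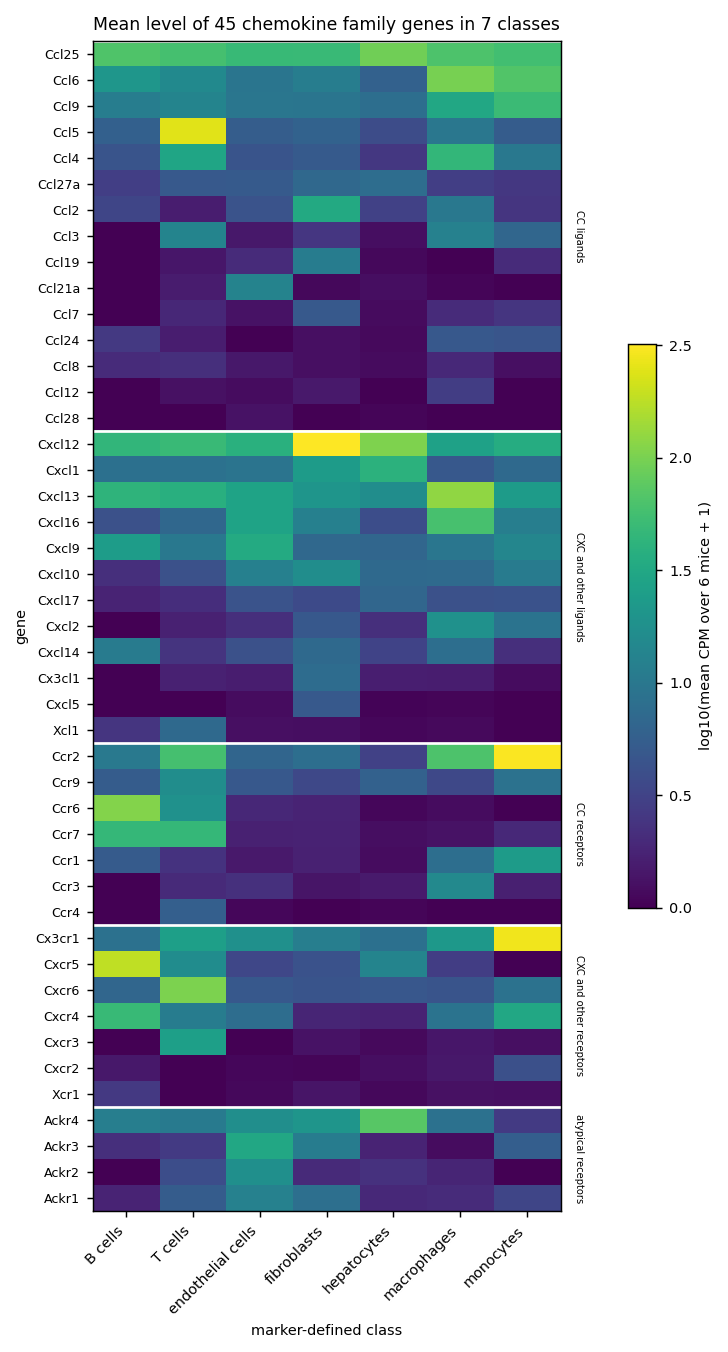
Mean level over the 6 mice of 45 members with at least 30 UMIs (rows, grouped by role) in the 7 tested classes (columns), as log10 of CPM plus 1. Cxcl12 is highest in fibroblasts, Ccl25 and Ackr4 in hepatocytes and Ccr2 and Cx3cr1 in monocytes.

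Among CC ligands, Ccl25, known as the ligand of Ccr9, was highest in hepatocytes, at 86.5 and 89.5 CPM in the Ctrl mice, 108 and 95.2 in the Pre-T mice and 99.956 and 63.2 in the Post-T mice. Both Pre-T mice were above both Ctrl mice, and the Post-T mice overlapped both other groups. Ccl27a, a ligand of Ccr10, and Cxcl17, a mucosal chemokine, also led in hepatocytes among the tested classes. Their means there were only 6.89 and 5.71 CPM, and Ccl27a averaged 12.9 CPM in cholangiocytes, a class outside the tests. Ccl5, a ligand made by activated T and NK cells, was highest in T cells in all 6 mice, and 4.48% to 33.8% of their nuclei held a UMI of it, against 0.255% to 4.69% of hepatocytes, which should lack it. The median depth of these nuclei was 1200 to 1598 UMIs in T cells and 1974 to 9361 in hepatocytes. Ccl6, Ccl4, Ccl24 and Ccl12 led in macrophages, Ccl9 in monocytes, and Ccl2, Ccl7 and Ccl19 in fibroblasts. Ccl2 and Ccl7 recruit monocytes through Ccr2, and Ccl19 draws naive T cells and dendritic cells through Ccr7. Ccl21a, which acts on the same receptor, led in endothelial cells. Among the tested classes Ccl28 was also highest there, at a mean of only 0.322 CPM, against 4.38 in cholangiocytes, which were not tested.

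Of the other ligands, Cxcl12, which holds cells that carry Cxcr4 in their niches, was highest in fibroblasts in all 6 mice, at 278 and 341 CPM in the Ctrl mice, 473 and 444 in the Pre-T mice and 222 and 157 in the Post-T mice. Hepatocytes held it at 182 and 156 CPM in the Ctrl mice, 105 and 113 in the Pre-T mice and 52.0 and 12.3 in the Post-T mice. In hepatocytes both Post-T mice were lowest and Post-T 2 lay far below Post-T 1. Cxcl10, Cxcl5 and Cx3cl1 also led in fibroblasts, Cxcl9 in endothelial cells, Cxcl1 in hepatocytes, and Cxcl2, Cxcl13 and Cxcl16 in macrophages. Cxcl1, Cxcl2 and Cxcl5 attract neutrophils through Cxcr2. Cxcl13 guides B cells that carry Cxcr5, and Cxcl16 is a membrane-bound ligand of Cxcr6.

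Among receptors, Ccr2, the receptor by which monocytes leave the bone marrow, and Cx3cr1, the fractalkine receptor of patrolling monocytes, were highest in monocytes in all 6 mice. Cxcr5 in B cells stood at 273 and 231 CPM in the Ctrl mice, 177 and 203 in the Pre-T mice and 40.6 and 187 in the Post-T mice. Only Post-T 1, with 17 B nuclei, stood apart from the rest. There 5.88% of nuclei held a UMI, the smallest share that 17 nuclei allow for a detected gene, too few to show a lower level. Cxcr6 and Cxcr3, receptors of effector T cells, led in T cells in all 6 mice. Ackr4, which scavenges Ccl19, Ccl21a and Ccl25, led in hepatocytes, at 46.9 and 96.6 CPM in the Ctrl mice, 147 and 90.6 in the Pre-T mice and 13.7 and 31.3 in the Post-T mice, with both Post-T mice lowest. Ackr3, which binds Cxcl12, and Ackr2, which binds inflammatory CC ligands, led in endothelial cells. All 3 kept these classes in each of the 6 mice.

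Some small classes outside the tests carried higher levels, given here with the number of mice that had more than 10 such nuclei. Ccr9 averaged 354 ± 89.9 CPM (SD) in plasmacytoid dendritic cells (4 mice), which are known to carry it. Conventional dendritic cells (5 mice) averaged 331 ± 123 CPM of Ccr2, 84.7 ± 46.8 of Cxcl16, 63.2 ± 40.8 of Xcr1 and 61.1 ± 52.5 of Ccr7. NK cells (4 mice) averaged 334 ± 54.8 CPM of Ccl5, 45.96 ± 26.4 of Ccl4 and 41.0 ± 33.9 of Xcl1, the ligand of Xcr1.

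The level of the leading members over all nuclei of each mouse came next, because the classes leave out the unnamed nuclei. Cxcl12 stood at 172 and 161 CPM in the Ctrl mice, 86.1 and 121 in the Pre-T mice and 37.0 and 11.3 in the Post-T mice. Cxcl1 stood at 27.4 and 43.5 CPM in the Ctrl mice, 33.1 and 38.1 in the Pre-T mice and 7.53 and 3.66 in the Post-T mice. Cxcl12 was highest in the Ctrl mice and Cxcl1 was lowest in the Post-T mice, with no overlap between those groups. Cxcl13 stood at 1.57 and 0.980 CPM in the Ctrl mice, 1.84 and 7.86 in the Pre-T mice and 121 and 0 in the Post-T mice. Post-T 1 alone carried it at a high level, and Post-T 2 had no UMI. Cxcl16 was 4.51 and 5.06 CPM in the Ctrl mice, 15.6 and 26.7 in the Pre-T mice and 6.49 and 4.69 in the Post-T mice. Cxcl9, induced by interferon gamma, was 0.443 and 1.67 CPM in the Ctrl mice, 8.36 and 25.4 in the Pre-T mice and 10.6 and 8.03 in the Post-T mice. The Pre-T mice were highest for Cxcl16 and above the Ctrl mice for Cxcl9, where the Post-T mice were also above the Ctrl mice and overlapped the Pre-T mice.

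Of the CC ligands, Ccl25 was 76.2 and 79.9 CPM in the Ctrl mice, 103 and 68.9 in the Pre-T mice and 88.2 and 54.9 in the Post-T mice, with overlapping groups. Ccl6, made by macrophages and other myeloid cells of the mouse, was 2.86 and 1.88 CPM in the Ctrl mice, 26.7 and 56.1 in the Pre-T mice and 7.96 and 2.42 in the Post-T mice. Ccl9, a related ligand of Ccr1, was 12 and 5.92 CPM in the Ctrl mice, 11.7 and 28.9 in the Pre-T mice and 7.20 and 3.30 in the Post-T mice. For Ccl6 both Pre-T mice were above all others, while for Ccl9 Pre-T 1 lay within the Ctrl range. Ccl5 was 2.98 and 5.27 CPM in the Ctrl mice, 16.4 and 24.3 in the Pre-T mice and 3.65 and 5.46 in the Post-T mice. Ccl4, an inflammatory ligand of macrophages and NK cells, was 0.604 and 1.14 CPM in the Ctrl mice, 7.87 and 16.7 in the Pre-T mice and 13.9 and 0.567 in the Post-T mice. For Ccl5 and Ccl4 the Pre-T mice were above the Ctrl mice, and Post-T 1 reached the Pre-T range for Ccl4.

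Of the receptors, Ccr2 was 5.88 and 4.90 CPM in the Ctrl mice, 43.1 and 42.6 in the Pre-T mice and 5.87 and 2.88 in the Post-T mice. Ccr9 was 4.35 and 6.45 CPM in the Ctrl mice, 15.4 and 8.33 in the Pre-T mice and 2.94 and 2.37 in the Post-T mice. Both were highest in the Pre-T mice. Ccr6, carried by B cells and some T cells, was 2.86 and 2.98 CPM in the Ctrl mice, 2.58 and 1.86 in the Pre-T mice and 0.521 and 0.721 in the Post-T mice. Ccr7, carried by naive T cells and migrating dendritic cells, was 2.94 and 3.72 CPM in the Ctrl mice, 1.39 and 2.42 in the Pre-T mice and 0.142 and 0.515 in the Post-T mice. Both were highest in the Ctrl mice, without overlap with the other groups. Cx3cr1 was 6.88 and 9.55 CPM in the Ctrl mice, 36.8 and 31.2 in the Pre-T mice and 11.4 and 5.0 in the Post-T mice. Cxcr5 was 7.28 and 8.94 CPM in the Ctrl mice, 28.5 and 12.4 in the Pre-T mice and 2.46 and 5.05 in the Post-T mice. Cxcr6 was 3.70 and 6.41 CPM in the Ctrl mice, 13.3 and 9.39 in the Pre-T mice and 3.50 and 2.42 in the Post-T mice. The Pre-T mice were highest for all 3. Cxcr4, the receptor of Cxcl12, was 1.33 and 1.96 CPM in the Ctrl mice, 4.63 and 4.93 in the Pre-T mice and 2.65 and 4.69 in the Post-T mice, and Cxcr3, the receptor of Cxcl9 and Cxcl10, was 0.402 and 0.490 CPM in the Ctrl mice, 1.60 and 2.42 in the Pre-T mice and 0.0947 and 0.206 in the Post-T mice. For Cxcr3 the Pre-T mice were highest and for Cxcr4 they overlapped Post-T 2. Ackr4 was 35.9 and 72.0 CPM in the Ctrl mice, 100.003 and 48.8 in the Pre-T mice and 10.466 and 21.5 in the Post-T mice. Ackr3 was 6.60 and 2.49 CPM in the Ctrl mice, 2.99 and 3.21 in the Pre-T mice and 5.40 and 7.52 in the Post-T mice. Ackr2 was 3.30 and 1.71 CPM in the Ctrl mice, 2.30 and 3.44 in the Pre-T mice and 1.99 and 3.71 in the Post-T mice, and Ackr1, which binds many chemokines on venous endothelium, was 1.57 and 2.65 CPM in the Ctrl mice, 2.09 and 7.12 in the Pre-T mice and 0.947 and 0.258 in the Post-T mice. Ackr4 and Ackr1 were lowest in the Post-T mice, Ackr2 overlapped between all groups, and Ackr3 was higher in both Post-T mice than in both Pre-T mice and overlapped otherwise.

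**Figure D2:**
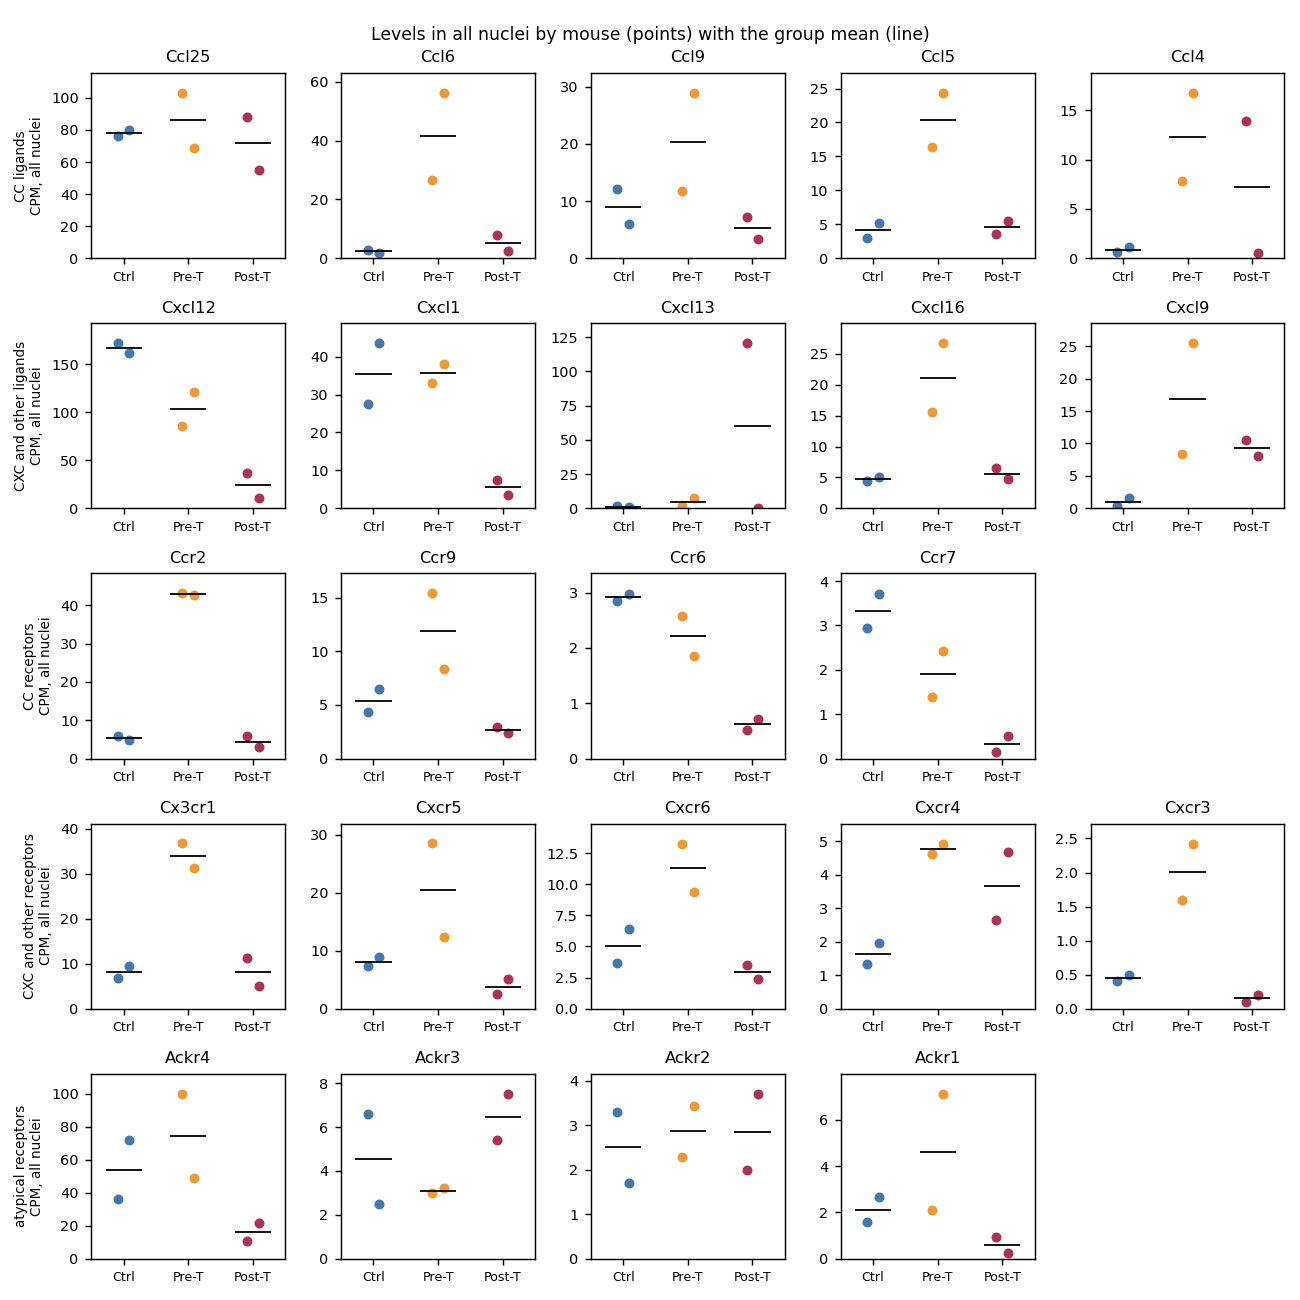
CPM over all kept nuclei of each mouse for members with the most UMIs in each role, up to 5 a role. Points are mice. Cxcl1 and Ackr4 are lowest in both Post-T mice, Ccr2 and Cx3cr1 are highest in both Pre-T mice, and Cxcl13 is high in Post-T 1 only.

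Whether such differences exceed the spread between mice was tested on summed counts with edgeR's quasi-likelihood test over the 6 mice, with Benjamini-Hochberg adjustment over all genes tested and a threshold of 0.05. Of 50 members that passed the filter on low counts in all nuclei, 0 passed in Pre-T against Ctrl, where the test called 0% of all genes. At an unadjusted p under 0.05 there were 20 members and 4291 of 21790 genes, and DESeq2 called 14 members, all higher in Pre-T. Here and below, DESeq2 counts are given without their share over all genes. The same holds for unadjusted counts in the pool and the classes. Such counts do not set members apart from other genes. In Post-T against Pre-T, 0 passed as well, again with 0% of all genes called, beside 27 members and 5315 genes at an unadjusted p under 0.05 and 19 members, all lower in Post-T, called by DESeq2. The median log2 fold change of the 50 members was 1.58 in Pre-T against Ctrl and -1.63 in Post-T against Pre-T, while that of all genes was -0.01 and -0.07. In Pre-T against Ctrl both Pre-T mice were above both Ctrl mice for 33 of 50 members (66%), a pattern that 45.3% of all genes showed, and below them for 3 (15.8% of all genes). In Post-T against Pre-T both Post-T mice were below both Pre-T mice for 35 members (49.2% of all genes) and above them for 1 (8.82% of all genes).

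In Post-T against Ctrl, 2 of 50 members passed, where 2.22% of all genes did, and the median over the 50 was 0.21 against 0.00 for all genes. Cxcl1 fell (log2 fold change -2.55 ± 0.35 (SE), edgeR adjusted p = 0.0363). Ccr3, the eotaxin receptor of eosinophils, stood at 0.161 and 0.122 CPM in the Ctrl mice, 2.21 and 2.09 in the Pre-T mice and 1.85 and 1.96 in the Post-T mice, on 4 and 3 UMIs in the Ctrl mice and 38 to 54 in the others. It rose (log2 fold change 3.84 ± 0.50 (SE), edgeR adjusted p = 0.0357), and both Pre-T mice were slightly above both Post-T mice. Both calls were also made by DESeq2. Without Ctrl 1, Ctrl 2, Pre-T 1 or Pre-T 2, neither passed (adjusted p 0.0797 to 0.221), and with the replicate number as a block the higher adjusted p was 0.0747. Both Post-T mice were above both Ctrl mice for 6 members (19.4% of all genes) and below them for 18 (33.7%).

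Pooling the named immune nuclei left 41 members to test. In Pre-T against Ctrl, 2 rose and 0 fell, where 1.17% of all genes were called. Cxcl16 was 16.5 and 15.8 CPM in the Ctrl mice, 59.9 and 53.7 in the Pre-T mice and 27.7 and 31.5 in the Post-T mice (log2 fold change 1.76 ± 0.25 (SE), edgeR adjusted p = 0.0371). Ccl6 was 28.5 and 20.8 CPM in the Ctrl mice, 125 and 132 in the Pre-T mice and 22.7 and 27.0 in the Post-T mice (log2 fold change 2.34 ± 0.29 (SE), edgeR adjusted p = 0.0345). For both, the Pre-T mice were above the Ctrl mice. The mix of classes in the pool differed too, and its part in the calls of the pool was not tested. Macrophage nuclei numbered 145 and 262 in the Ctrl mice and 414 and 611 in the Pre-T mice. Monocyte nuclei numbered 52 and 60 against 371 and 295. Within macrophages Ccl6 passed in this comparison and Cxcl16 did not (edgeR adjusted p = 0.150). In Post-T against Ctrl, 1 member rose and 4 fell, where 1.59% of all genes were called. Ccr3 was 0.749 and 0.718 CPM in the Ctrl mice, 8.46 and 5.18 in the Pre-T mice and 11.4 and 21.7 in the Post-T mice (ratio 21.9 on 47 against 2 UMIs with an exact 95% counting interval of 5.75 to 187, edgeR adjusted p = 0.0412). Ccr7 was 41.2 and 48.8 CPM in the Ctrl mice, 6.83 and 9.54 in the Pre-T mice and 1.26 and 5.99 in the Post-T mice (log2 fold change -3.42 ± 0.59 (SE), edgeR adjusted p = 0.0493). Ccr6 was 44.9 and 36.6 CPM in the Ctrl mice, 15.6 and 9.26 in the Pre-T mice and 3.78 and 6.74 in the Post-T mice (log2 fold change -2.72 ± 0.45 (SE), edgeR adjusted p = 0.0432). The lymphocyte receptors Ccr7 and Ccr6 were thus lowest in the Post-T mice, in pools whose shares of B and T nuclei also differed between groups. Ccr9 was 31.5 and 28 CPM in the Ctrl mice, 21.8 and 16.9 in the Pre-T mice and 6.94 and 5.99 in the Post-T mice (log2 fold change -1.95 ± 0.32 (SE), edgeR adjusted p = 0.0432). Cxcl12 was 67.4 and 53.8 CPM in the Ctrl mice, 22.1 and 48.0 in the Pre-T mice and 7.57 and 5.24 in the Post-T mice (log2 fold change -2.99 ± 0.51 (SE), edgeR adjusted p = 0.0478). Both were lower in each Post-T mouse than in each Ctrl mouse. In Post-T against Pre-T, 0 of 41 passed, where 0% of all genes were called, beside 16 at an unadjusted p under 0.05 and 3, all lower, by DESeq2. DESeq2 also made all 7 calls of the pool. Without Ctrl 1, Ctrl 2, Pre-T 1 or Pre-T 2, none of the 7 passed (adjusted p 0.0647 to 0.321), without Post-T 1, Cxcl12, Ccr9 and Ccr6 did not, and with the replicate block none did (highest adjusted p 0.0773).

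Within the 7 classes each comparison made 249 tests of members. In Pre-T against Ctrl, 23 rose and 1 fell, which is 9.64% of the tests against 2.26% of the tests of all genes. In Post-T against Ctrl, 5 rose and 6 fell (4.42% against 2.62%), and in Post-T against Pre-T, 2 rose and 6 fell (3.21% against 1%). The 3 comparisons share mice in pairs, so their counts are not independent. These 43 calls lie in 21 members. Together with the pools 24 members passed in at least 1 test, in 52 calls. Only 1 of the 52, Ccr7 in T cells, held with each mouse left out in turn. DESeq2 gave an adjusted p under the threshold for 30, and none at all for 7. A fit without 1 mouse leaves 1 mouse in its group. In all nuclei, pooled immune nuclei, hepatocytes and macrophages, fits without a Ctrl mouse lost the calls of all genes in the comparisons with member calls. A lost call there does not set a member apart from other genes.

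**Figure D3:**
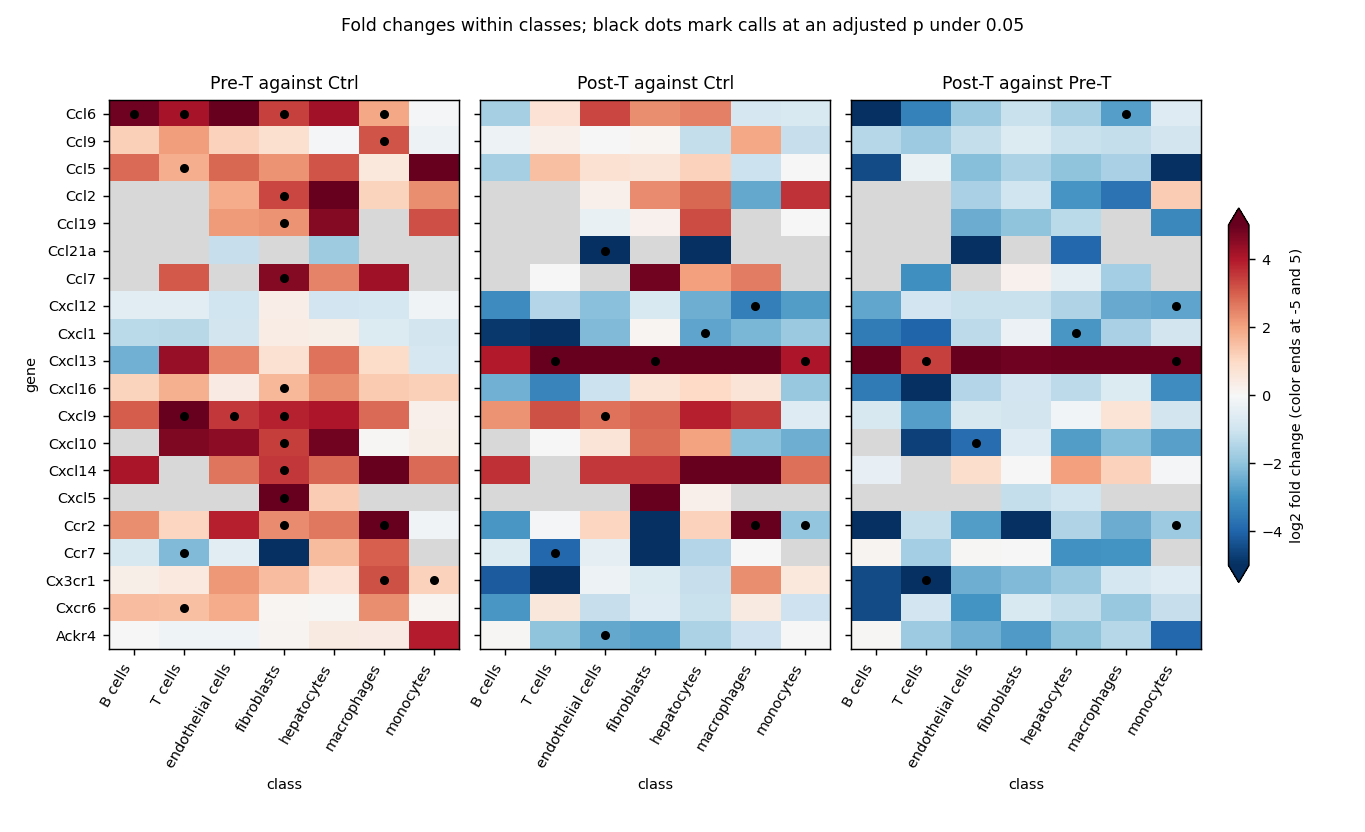
Log2 fold change (color, ends at -5 and 5) of 20 members that passed the test in at least 1 class, by class (columns) and comparison (panels). Dots mark tests that passed and grey marks genes with too few counts, and strong colors include fits against a group with no UMI. Most dots of Pre-T against Ctrl lie in fibroblasts (10), T cells (5) and macrophages (4).

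In macrophages 4 members rose in Pre-T against Ctrl, namely Ccr2 and Cx3cr1, receptors known from monocytes, and the ligands Ccl9 and Ccl6. Ccr2 (chr9:124101950-124113557, plus strand) was 0 and 0 CPM in the Ctrl mice, 209.8 and 117 in the Pre-T mice and 18.4 and 33.8 in the Post-T mice, on 0, 0, 294, 229, 19 and 24 UMIs. No Ctrl macrophage held a UMI and every other mouse had some. Against a floor of 3 counts over the Ctrl group it was at least 37.3-fold higher in Pre-T (edgeR adjusted p = 0.00763) and at least 5.91-fold higher in Post-T (adjusted p = 0.0244). Cx3cr1 was 5.94 and 2.62 CPM in the Ctrl mice, 47.1 and 31.2 in the Pre-T mice and 15.5 and 22.5 in the Post-T mice, and rose in Pre-T (ratio 9.06 on 127 against 3 UMIs with an exact 95% counting interval of 3.03 to 44.5, edgeR adjusted p = 0.0385). Ccl9 was 8.90 and 5.24 CPM in the Ctrl mice, 57.8 and 64.0 in the Pre-T mice and 27.2 and 19.7 in the Post-T mice, and rose in Pre-T (log2 fold change 3.13 ± 0.50 (SE), edgeR adjusted p = 0.0161). For both, all 4 mice on the Western diet were above both Ctrl mice. Ccl6 was 62.3 and 49.8 CPM in the Ctrl mice, 221 and 195 in the Pre-T mice and 21.3 and 33.8 in the Post-T mice. It rose in Pre-T (log2 fold change 1.91 ± 0.35 (SE), edgeR adjusted p = 0.0280) and was lower again in Post-T than in Pre-T (log2 fold change -2.75 ± 0.36 (SE), edgeR adjusted p = 0.0327), below both Ctrl mice. Cxcl12 was 50.5 and 47.2 CPM in the Ctrl mice, 17.1 and 34.3 in the Pre-T mice and 5.82 and 1.41 in the Post-T mice, and fell in Post-T against Ctrl (log2 fold change -3.41 ± 0.64 (SE), edgeR adjusted p = 0.0252), with both Post-T mice lowest. In all, 4 of 38 members passed in Pre-T against Ctrl, where 1.53% of all genes did, 2 in Post-T against Ctrl (2.2%) and 1 in Post-T against Pre-T (0.135%). The median over the 38 was 1.94, 0.08 and -1.57, beside 0.17, 0.04 and -0.07 for all genes.

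The cluster that held most macrophages of a mouse differed between the groups. The largest share of Ctrl 1 was in immune cluster 14 and that of Ctrl 2 in cluster 24, both led by the Kupffer cell genes Cd163 and Clec4f, while it was in cluster 1 for both Pre-T mice, in cluster 20 for Post-T 1 and in cluster 12 for Post-T 2. Hepatocyte markers within macrophages, highest in the Ctrl mice and lowest in Pre-T 1 and Post-T 1, moved partly with Cxcl12, which hepatocytes also express, and their part in its fall was not tested. Monocyte markers in macrophages summed to 154 and 157 CPM in the Ctrl mice, 276 and 303 in the Pre-T mice and 996 and 119.7 in the Post-T mice, with 5 to 8 of 11 detected in the Ctrl mice and 7 to 11 in the others, and their part in the rise of Ccr2 and Cx3cr1 was not tested. Leaving out Ctrl 1 or Ctrl 2 ended all 7 macrophage calls, in fits that lost the calls of all other genes too. Without Pre-T 1, Cx3cr1 and Ccl6 did not pass in Pre-T against Ctrl (highest adjusted p 0.154). Without Pre-T 2, Cx3cr1, Ccl9 and Ccl6 did not (highest 0.0808), and the fall of Ccl6 from Pre-T to Post-T was at 0.0539. DESeq2 kept 6 of the 7 calls and gave Cx3cr1 an adjusted p of 0.0818.

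In monocytes Ccr2 fell in the Post-T mice and Cx3cr1 rose in the Pre-T mice. Ccr2 was 508 and 417 CPM in the Ctrl mice, 452 and 298 in the Pre-T mice and 132 and 50.9 in the Post-T mice, and fell in Post-T against both Ctrl (log2 fold change -1.96 ± 0.37 (SE), edgeR adjusted p = 5.18e-05) and Pre-T (log2 fold change -1.81 ± 0.36 (SE), edgeR adjusted p = 0.000183). Both Post-T mice were below all others. Cx3cr1 was 103 and 318 CPM in the Ctrl mice, 429.7 and 375 in the Pre-T mice and 279 and 181 in the Post-T mice, and rose in Pre-T against Ctrl (log2 fold change 1.14 ± 0.36 (SE), edgeR adjusted p = 0.0473), with the gap between the 2 Ctrl mice wider than that between the higher Ctrl mouse and the Pre-T mice. Cxcl12 was 43.1 and 65.9 CPM in the Ctrl mice, 27.8 and 57.9 in the Pre-T mice and 2.87 and 11.3 in the Post-T mice, and fell in Post-T against Pre-T (ratio 0.139 on 3 against 56 UMIs with an exact 95% counting interval of 0.0278 to 0.427, edgeR adjusted p = 0.0488). Hepatocyte markers in monocytes were 14697 and 11892 CPM in the Ctrl mice, 3283 and 13047 in the Pre-T mice and 5013 and 16011 in the Post-T mice, and their part was not tested. Ccl9 stood at 86.1 and 54.9 CPM in the Ctrl mice, 54.4 and 52.9 in the Pre-T mice and 31.6 and 17.0 in the Post-T mice, and did not pass in any comparison. Of 31 members, 1 passed in Pre-T against Ctrl (3.95% of all genes), 2 in Post-T against Ctrl (2.68%) and 3 in Post-T against Pre-T (2.15%), both Post-T counts including Cxcl13. The Ctrl mice had 52 and 60 monocyte nuclei against 91 to 371 in the others, and in each mouse a different cluster held most of them (immune clusters 19, 35, 9, 13, 29 and 32). The fall of Ccr2 did not pass against Ctrl without Ctrl 1 (adjusted p = 0.0986), nor against Pre-T without Pre-T 1 or Post-T 2 (highest adjusted p 0.0983). DESeq2 called Ccr2 in both (0.0125 and 0.0485) and not Cx3cr1 (0.633). Cx3cr1 was lost without Ctrl 1, Pre-T 1 or Pre-T 2 (0.238 to 0.788). Cxcl12 was lost with the replicate block (0.0778) and without Ctrl 1, Ctrl 2, Pre-T 1, Pre-T 2 or Post-T 1 (0.0720 to 0.953 among these fits).

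**Figure D4:**
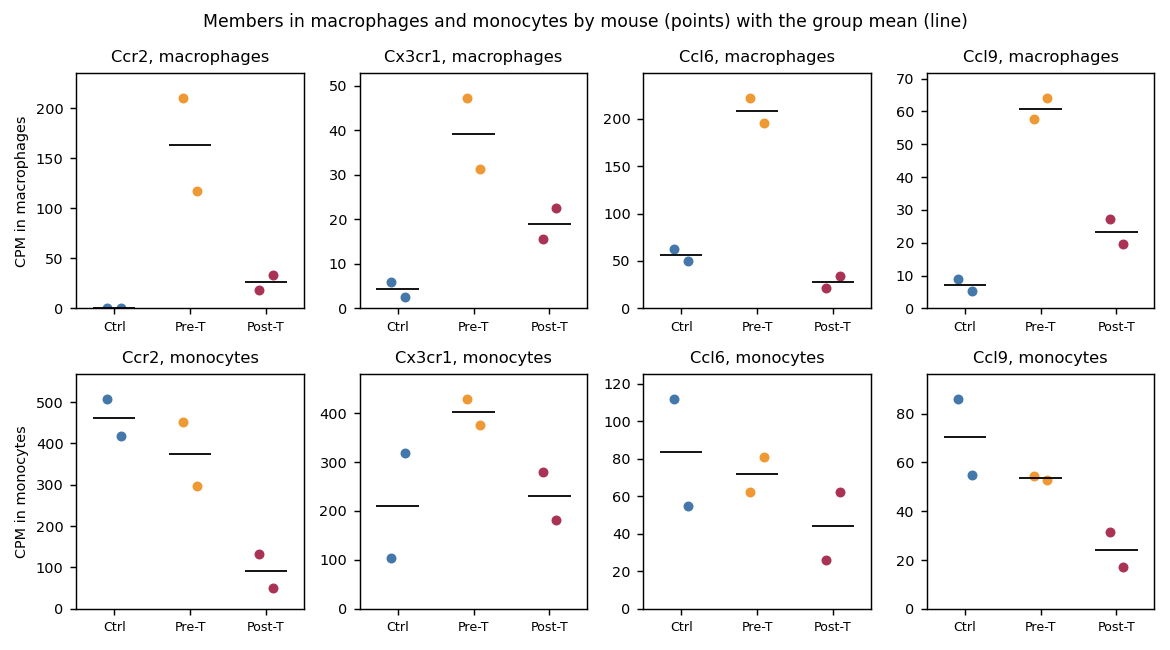
CPM of Ccr2, Cx3cr1, Ccl6 and Ccl9 in macrophages and monocytes of each mouse (points). Ccr2 is at 0 in the macrophages of both Ctrl mice and between 18.4 and 210 in the other 4, while in monocytes it is lowest in both Post-T mice.

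The difference between both classes was itself tested in a joint fit with each mouse as a block, chosen after these values were seen. The change of Ccl9 from Ctrl to Pre-T was larger in macrophages than in monocytes by 3.32 ± 0.79 (SE) on the log2 scale (edgeR adjusted p = 0.00565). That of Ccr2 also differed, in Pre-T against Ctrl (adjusted p = 4.75e-18) and in Post-T against Ctrl (adjusted p = 8.45e-11), on fits in which Ctrl macrophages had no UMI. For Cx3cr1 the difference was not past the threshold (2.05, adjusted p = 0.367), nor for Ccl6 (1.98, adjusted p = 0.0545).

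In T cells Ccl5, Cxcr6, Ccl6 and Cxcl9 rose in Pre-T against Ctrl, and Ccr7 fell. Ccr7 was 108 and 107 CPM in the Ctrl mice, 22.5 and 23.1 in the Pre-T mice and 16.4 and 0 in the Post-T mice. It fell in Pre-T against Ctrl (log2 fold change -2.22 ± 0.50 (SE), edgeR adjusted p = 0.00603) and in Post-T against Ctrl (ratio 0.0517 on 2 against 58 UMIs with an exact 95% counting interval of 0.00611 to 0.195, edgeR adjusted p = 0.00168), and all 4 mice on the Western diet were below both Ctrl mice. Ccl5 was 25.8 and 185 CPM in the Ctrl mice, 463 and 311 in the Pre-T mice and 222 and 284 in the Post-T mice, and rose in Pre-T (log2 fold change 1.83 ± 0.44 (SE), edgeR adjusted p = 0.0102). Cxcr6, which marks liver-resident T cells, was 17.2 and 97.2 CPM in the Ctrl mice, 230.1 and 119 in the Pre-T mice and 74.0 and 75.1 in the Post-T mice, and rose in Pre-T (log2 fold change 1.52 ± 0.45 (SE), edgeR adjusted p = 0.0474). In both genes the Pre-T mice were above the Ctrl mice and Ctrl 1 was lowest. NK cell markers in T cells summed to 34.4 and 126 CPM in the Ctrl mice, 415 and 285 in the Pre-T mice and 148 and 196 in the Post-T mice, so they moved with these genes, and their part was not tested. Ccl6 was 0 and 3.24 CPM in the Ctrl mice, 25 and 49.8 in the Pre-T mice and 8.22 and 0 in the Post-T mice (ratio 21.4 on 38 against 1 UMIs with an exact 95% counting interval of 3.61 to 867, edgeR adjusted p = 0.0154). Cxcl9 was 0 and 0 CPM in the Ctrl mice, 5.0 and 40.9 in the Pre-T mice and 8.22 and 0 in the Post-T mice, which with no UMI in Ctrl makes it at least 4.69-fold higher in Pre-T (edgeR adjusted p = 0.0470). Neither is a gene that T cells are known for. Macrophage markers in T cells summed to 98.9 and 117 CPM in the Ctrl mice, 528 and 1104 in the Pre-T mice and 279.5 and 79.3 in the Post-T mice, and their part was not tested. Cx3cr1, carried by effector T cells, was 8.60 and 51.8 CPM in the Ctrl mice, 55.0 and 35.6 in the Pre-T mice and 0 and 0 in the Post-T mice, at least 5.26-fold lower in Post-T than in Pre-T (edgeR adjusted p = 0.0189) with no UMI in either Post-T mouse.

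Of 32 members, 6 passed in Pre-T against Ctrl, where 4.09% of all genes did, 2 in Post-T against Ctrl (2.32%) and 2 in Post-T against Pre-T (1.68%), each Post-T pair including Cxcl13. Their median was 1.56, 0 and -1.77, beside 0.14, -0.07 and -0.20 for all genes. DESeq2 made 0 of these 10 calls, with adjusted p of 0.180 for Ccr7, 0.288 for Ccl5 and 0.554 for Cxcr6 in Pre-T against Ctrl. Without Ctrl 1, only Ccr7 of the 6 passed in Pre-T against Ctrl. Cxcr6 was also lost without Pre-T 1, Post-T 1 or Post-T 2, Ccl5 without Post-T 2, Ccl6 without Pre-T 2, and Cxcl9 without Ctrl 2, Pre-T 2, Post-T 1 or Post-T 2 (highest adjusted p over these fits 0.813). In Post-T against Ctrl Ccr7 was lost without Post-T 2 (adjusted p = 0.232), and Cx3cr1 without Post-T 1 or Post-T 2 (highest adjusted p 0.434). Most T nuclei of the Ctrl mice lay in immune cluster 3, those of the Pre-T mice in cluster 0, those of Post-T 1 in cluster 37 and those of Post-T 2 in cluster 26.

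In B cells 1 of 23 members passed in Pre-T against Ctrl, where 3.4% of all genes did. Ccl6 was 2.79 and 0 CPM in the Ctrl mice, 19.0 and 97.9 in the Pre-T mice and 0 and 0 in the Post-T mice (ratio 45 on 17 against 1 UMIs with an exact 95% counting interval of 7.06 to 1882, edgeR adjusted p = 0.000253). Pre-T 2 was by far the highest and both Pre-T mice were above the Ctrl mice. Macrophage markers in B cells summed to 284 and 146 CPM in the Ctrl mice, 285 and 1091 in the Pre-T mice and 365 and 13.8 in the Post-T mice, also highest in Pre-T 2, and their part was not tested. Without Ctrl 2 or Pre-T 2, the call was lost (adjusted p 0.134 and 0.617). Most B nuclei lay in immune cluster 16 for Ctrl 1, 6 for Ctrl 2, 17 for both Pre-T mice and Post-T 1, and 31 for Post-T 2. Post-T tests rested on 17 and 91 B nuclei, and 0 of 23 members passed in either, where 1.78% of all genes did against Ctrl and 1.29% against Pre-T. At an unadjusted p under 0.05 there were 3 and 4 members, and DESeq2 called 0 in both.

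Cxcl9 and Cxcl10, interferon-induced ligands of Cxcr3, and Cxcl1, a neutrophil attractant of stressed hepatocytes, carry the stromal and hepatocyte results that follow, and the 250 bases before their transcription starts are shown for that reason (RefSeq, GRCm38.p6, given 5′ to 3′ on the strand of the gene). Capitals mark the letters GGNNTTTCC, a loose form of the NF-κB site, on either strand, and in Cxcl10 also a pair of GAAA with 2 bases between, a loose form of the interferon-stimulated response element, where N is any base.
Cxcl9, chr5:92328080-92328329, minus strand: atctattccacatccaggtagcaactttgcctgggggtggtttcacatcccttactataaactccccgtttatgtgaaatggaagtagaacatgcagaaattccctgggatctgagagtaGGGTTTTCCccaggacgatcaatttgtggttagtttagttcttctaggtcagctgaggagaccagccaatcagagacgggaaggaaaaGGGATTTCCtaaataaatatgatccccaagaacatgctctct
Cxcl10, chr5:92348890-92349139, minus strand: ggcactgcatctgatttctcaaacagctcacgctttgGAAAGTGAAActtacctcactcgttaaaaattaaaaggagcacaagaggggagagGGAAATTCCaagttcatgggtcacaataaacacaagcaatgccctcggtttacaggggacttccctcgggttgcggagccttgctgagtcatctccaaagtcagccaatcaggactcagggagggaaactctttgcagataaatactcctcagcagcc
Cxcl1, chr5:90890995-90891244, plus strand: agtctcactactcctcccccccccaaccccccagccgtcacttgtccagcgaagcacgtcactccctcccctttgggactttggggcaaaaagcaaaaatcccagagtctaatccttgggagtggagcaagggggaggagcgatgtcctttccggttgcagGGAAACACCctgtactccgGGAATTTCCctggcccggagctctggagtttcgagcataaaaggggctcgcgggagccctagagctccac
In Cxcl9 the first letters of both matches lay 130 and 42 bases before the start, in Cxcl1 89 and 70, and in Cxcl10 the 2 motifs began 158 and 213 bases before it. GGNNTTTCC occurred in 4.93% of 32851 promoter windows and in 7 of 39 windows of described members (17.9%). The pair of GAAA occurred in 2.98% of all windows and in 3 of the 39, the STAT site letters TTCNNNGAA in 7.02% and 2, and the AP-1 letters TGANTCA in 6.75% and 5. Only 35 of the 46 described members had an entry, and a match of letters does not show that a factor binds there.

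In fibroblasts 11 members rose in Pre-T against Ctrl and 0 fell, among 41 tested members, where 3.67% of all genes were called. Ccl2 (chr11:82035571-82037453, plus strand), the main ligand of Ccr2, was 2.16 and 8.63 CPM in the Ctrl mice, 68.7 and 66.2 in the Pre-T mice and 39.7 and 7.16 in the Post-T mice (log2 fold change 3.35 ± 0.49 (SE), edgeR adjusted p = 0.00438). Its neighbor Ccl7 was 0 and 0.320 CPM in the Ctrl mice, 4.29 and 9.61 in the Pre-T mice and 9.93 and 0 in the Post-T mice (ratio 38.8 on 25 against 1 UMIs with an exact 95% counting interval of 6.35 to 1594, edgeR adjusted p = 0.0388). In both genes the Pre-T mice were above the Ctrl mice, and Post-T 2 lay within the Ctrl range. Cxcl10 was 1.30 and 3.20 CPM in the Ctrl mice, 42.3 and 20.3 in the Pre-T mice and 21.5 and 7.16 in the Post-T mice (log2 fold change 3.46 ± 0.52 (SE), edgeR adjusted p = 0.00504). Cxcl9 was 0.865 and 0.639 CPM in the Ctrl mice, 7.97 and 18.1 in the Pre-T mice and 8.27 and 0 in the Post-T mice (log2 fold change 3.83 ± 0.76 (SE), edgeR adjusted p = 0.0184). Both ligands of Cxcr3 were above the Ctrl mice in each Pre-T mouse. Cxcl5, an attractant of neutrophils, was 0 and 0 CPM in the Ctrl mice, 7.36 and 11.7 in the Pre-T mice and 4.96 and 0 in the Post-T mice, at least 17.6-fold higher in Pre-T (edgeR adjusted p = 0.0104) with no UMI in either Ctrl mouse. Ccl19 was 5.62 and 2.88 CPM in the Ctrl mice, 31.9 and 14.9 in the Pre-T mice and 6.62 and 0 in the Post-T mice (log2 fold change 2.24 ± 0.52 (SE), edgeR adjusted p = 0.0395). Cxcl14, an attractant of monocytes and dendritic cells, was 1.30 and 0.320 CPM in the Ctrl mice, 8.59 and 13.3 in the Pre-T mice and 13.2 and 0 in the Post-T mice (log2 fold change 3.55 ± 0.79 (SE), edgeR adjusted p = 0.0326). The Pre-T mice were above the Ctrl mice in each.

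Ccl6, Ccr2 and Cxcl16, which also rose in fibroblasts, are known from leukocytes. Ccl6 was 2.59 and 0.959 CPM in the Ctrl mice, 11.7 and 31.0 in the Pre-T mice and 9.93 and 7.16 in the Post-T mice (log2 fold change 3.42 ± 0.65 (SE), edgeR adjusted p = 0.0148). Ccr2 was 4.32 and 1.92 CPM in the Ctrl mice, 15.9 and 20.3 in the Pre-T mice and 0 and 0 in the Post-T mice (log2 fold change 2.35 ± 0.53 (SE), edgeR adjusted p = 0.0389). Both were highest in the Pre-T mice. Cxcl16 was 5.62 and 5.12 CPM in the Ctrl mice, 17.8 and 21.9 in the Pre-T mice and 9.93 and 7.16 in the Post-T mice (log2 fold change 1.67 ± 0.39 (SE), edgeR adjusted p = 0.0412). Macrophage markers in fibroblasts summed to 138 and 142 CPM in the Ctrl mice, 336 and 723 in the Pre-T mice and 240.0 and 71.6 in the Post-T mice. Of the 12 markers, 11 or 12 were detected outside Post-T 2. Like these 3 genes the markers were highest in both Pre-T mice. In Post-T 1 they were above the Ctrl mice while Ccr2 was at 0. In Post-T 2, with 57 fibroblast nuclei, the markers were lowest. The 7.16 CPM of Ccl6 and of Cxcl16 in that mouse is the smallest level a detected gene can have there. It is too thin to compare with the Ctrl mice. The part of the macrophage markers in these 3 genes and in the other members that rose in fibroblasts was not tested.

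In Pre-T against Ctrl the median over the 41 members was 1.16, beside 0.01 for all genes. DESeq2 kept 5 of the 11 calls, those of Ccl2, Cxcl10, Cxcl5, Ccl6 and Cxcl9 (highest adjusted p of the others 0.151). Without Ctrl 1, none passed (adjusted p 0.0636 to 0.235), while Ccl2, Cxcl10 and Cxcl5 passed without each other mouse. Without Ctrl 2, only these 3 did (highest 0.227), without Pre-T 2, these and Ccl19 (highest 0.289), and without Pre-T 1, all but Ccl19 and Cxcl16 (highest 0.281). With the replicate block all 11 passed. In Post-T against Ctrl only Cxcl13 passed (3.09% of all genes), from Post-T 1, and in Post-T against Pre-T, 0 of 41 did, where 0.0581% of all genes were called, 9 members had an unadjusted p under 0.05 and DESeq2 called 0. Fibroblast nuclei numbered 837 and 1092 in the Ctrl mice and 214 and 57 in the Post-T mice, and most lay in cluster 7 in the Ctrl mice and in cluster 11 in the others.

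In endothelial cells Cxcl9 rose, while Ccl21a, Ackr4 and Cxcl10 fell in the Post-T mice. Cxcl9 was 3.39 and 6.96 CPM in the Ctrl mice, 54.5 and 74.9 in the Pre-T mice and 24.3 and 32.0 in the Post-T mice, and rose in Pre-T (log2 fold change 3.52 ± 0.45 (SE), edgeR adjusted p = 0.0213) and in Post-T (log2 fold change 2.71 ± 0.45 (SE), edgeR adjusted p = 0.0159) against Ctrl. The Ctrl mice were lowest and the Pre-T mice highest. Cxcl10 was 2.55 and 0 CPM in the Ctrl mice, 27.9 and 34.1 in the Pre-T mice and 2.43 and 1.21 in the Post-T mice, and fell from Pre-T to Post-T (log2 fold change -3.82 ± 0.71 (SE), edgeR adjusted p = 0.0386), with the Post-T mice at the level of the Ctrl mice. Ccl21a, made by lymphatic and high endothelium, was 44.1 and 5.41 CPM in the Ctrl mice, 7.98 and 15.6 in the Pre-T mice and 0 and 0 in the Post-T mice, at least 36.2-fold lower in Post-T than in Ctrl (edgeR adjusted p = 0.0450) with no UMI in either Post-T mouse. Ctrl 1 set most of the Ctrl level. Ackr4 was 13.6 and 32.5 CPM in the Ctrl mice, 27.9 and 16.5 in the Pre-T mice and 3.24 and 3.02 in the Post-T mice, and fell in Post-T against Ctrl (log2 fold change -2.57 ± 0.52 (SE), edgeR adjusted p = 0.0331), with both Post-T mice below all others. Hepatocyte markers in endothelial cells were 16262 and 11721 CPM in the Ctrl mice, 4201 and 12411 in the Pre-T mice and 7297 and 15803 in the Post-T mice, and their part in the fall of Ackr4 was not tested. Macrophage markers in these nuclei were 81.5 and 95.1 CPM in the Ctrl mice, 230.0 and 719 in the Pre-T mice and 267 and 29.9 in the Post-T mice. Of 36 members, 1 passed in Pre-T against Ctrl (0.419% of all genes), 3 in Post-T against Ctrl (3.39%) and 1 in Post-T against Pre-T (1.7%), and DESeq2 made all 5 calls. The rise of Cxcl9 in Pre-T was lost without Ctrl 1, Ctrl 2, Pre-T 1 or Pre-T 2 (adjusted p 0.106 to 0.177), and that in Post-T without Ctrl 1 or Ctrl 2. Ccl21a was lost without Ctrl 1, Pre-T 1, Pre-T 2 or Post-T 2, and Ackr4 without each mouse but Post-T 1 (highest adjusted p of these 3 calls 0.25). Cxcl10 was lost without Pre-T 1, Pre-T 2 or Post-T 2 (0.0875 to 0.261). Cluster 13 held the largest share of the endothelial nuclei of the Ctrl and Pre-T mice, cluster 25 those of Post-T 1 and cluster 5 those of Post-T 2.

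**Figure D5:**
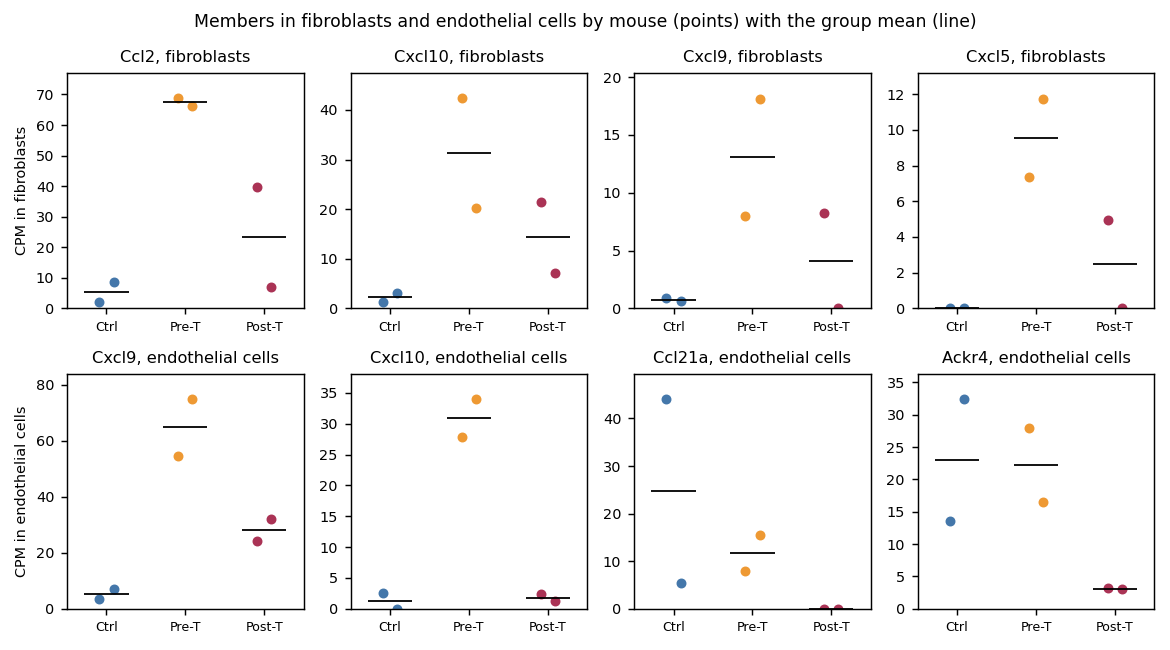
CPM of 4 members in fibroblasts (Ccl2, Cxcl10, Cxcl9, Cxcl5) and 4 in endothelial cells (Cxcl9, Cxcl10, Ccl21a, Ackr4) of each mouse (points). In fibroblasts the Pre-T mice lie above the Ctrl mice in all 4, and in endothelial cells Ccl21a is at 0 in both Post-T mice.

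In hepatocytes Cxcl1 fell in the Post-T mice. Cxcl1 (chr5:90891241-90893115, plus strand) was 34.6 and 55.7 CPM in the Ctrl mice, 69.6 and 65.0 in the Pre-T mice and 9.93 and 4.76 in the Post-T mice, and fell against Ctrl (log2 fold change -2.63 ± 0.36 (SE), edgeR adjusted p = 0.0324) and against Pre-T (log2 fold change -2.90 ± 0.37 (SE), edgeR adjusted p = 0.0468). Both Post-T mice were below all 4 others. It was the only one of 48 members to pass in either comparison, where 2.59% and 0.518% of all genes did, and 0 passed in Pre-T against Ctrl, where 0% of all genes did, 10 members had an unadjusted p under 0.05 and DESeq2 called 5, all higher. DESeq2 made both calls. With the replicate block the fall against Ctrl passed (adjusted p = 0.0390) and that against Pre-T did not (0.0591). Without Ctrl 1, Ctrl 2, Pre-T 1 or Pre-T 2, neither passed, and without Post-T 2, the fall against Pre-T did not. These fits lost the calls of all other genes too. Different clusters held most hepatocytes of the groups, namely 4, 9, 1, 1, 3 and 16 in the order of the groups, and their median depth ran from 1974 UMIs in Post-T 1 to 9361 in Post-T 2. Ccl25, Cxcl12 and Ackr4, the other main hepatocyte members, did not pass in any comparison within this class.

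Cxcl13, the B cell attractant, differed between the 2 Post-T mice in every class. In Post-T 1 it reached 701 CPM in macrophages, 243 in B cells, 206 in T cells, 159.8 in endothelial cells, 124 in monocytes, 108 in fibroblasts and 92.0 in hepatocytes, and Post-T 2 had no UMI of it. The calls it made in Post-T rest on that mouse: at least 12.5-fold higher than Ctrl in T cells (edgeR adjusted p = 0.00483), and higher in fibroblasts (log2 fold change 5.63 ± 0.92 (SE), edgeR adjusted p = 0.00785) and monocytes (ratio 17.0 on 43 against 1 UMIs with an exact 95% counting interval of 2.89 to 686, edgeR adjusted p = 0.0141) than in Ctrl. Against Pre-T it was higher in T cells (log2 fold change 3.43 ± 0.90 (SE), edgeR adjusted p = 0.0375) and monocytes (ratio 37.1 on 43 against 3 UMIs with an exact 95% counting interval of 11.9 to 187, edgeR adjusted p = 9.04e-07). The groups overlapped in all 5. Without Post-T 1, none passed (adjusted p 0.839 to 1 where the sign also turned in 4 of them), without Ctrl 1, those of fibroblasts and monocytes against Ctrl did not, and without Ctrl 2, that of monocytes did not.

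Other genes of the pathway were taken from 4 lists and tested within the same classes. Of 28 genes of chemokine receptor signaling, tested 196 times, 9 tests rose and 0 fell in Pre-T against Ctrl, 8 rose and 1 fell in Post-T against Ctrl, and 0 passed in Post-T against Pre-T (21 at an unadjusted p under 0.05). DESeq2 called 1, 9 and 1 of these tests. Over all genes 2.26%, 2.62% and 1% of the class tests were called in the 3 comparisons, which is the background for each list. Their median log2 fold change was 0.34, 0.22 and -0.06, while the class medians of all genes ran from -0.07 to 0.28, from -0.37 to 0.04 and from -0.22 to -0.01. Pik3r5, a regulatory subunit of PI3K gamma, was 181 and 264 CPM in the Ctrl mice, 449.5 and 395 in the Pre-T mice and 762 and 469 in the Post-T mice in monocytes, and rose in Post-T against Ctrl (log2 fold change 1.81 ± 0.36 (SE), edgeR adjusted p = 0.000111). Pik3cd, the catalytic subunit of PI3K delta, was 94.8 and 219.6 CPM in the Ctrl mice, 329 and 342 in the Pre-T mice and 540.4 and 311 in the Post-T mice there, and also rose (log2 fold change 1.80 ± 0.38 (SE), edgeR adjusted p = 0.00036). Rgs2, which dampens G protein signaling, was 0 and 2.32 CPM in the Ctrl mice, 23.9 and 28.2 in the Pre-T mice and 53.5 and 41.0 in the Post-T mice in endothelial cells (Post-T against Ctrl, edgeR adjusted p = 0.00474). In all 3 the Post-T mice were above the Ctrl mice.

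Of 21 inducers of chemokine transcription, tested 140 times, 9, 8 and 3 tests rose in the 3 comparisons in the same order and 0, 0 and 1 fell (median 0.50, 0.34 and -0.11), against 2.26%, 2.62% and 1% of the tests of all genes. DESeq2 called 5, 11 and 7. Il1r1, the receptor of interleukin 1, was 55.8 and 75.3 CPM in the Ctrl mice, 25.3 and 21.0 in the Pre-T mice and 122 and 484 in the Post-T mice in B cells, and rose in Post-T against Pre-T (log2 fold change 4.18 ± 0.56 (SE), edgeR adjusted p = 3.40e-10) and against Ctrl (log2 fold change 2.59 ± 0.43 (SE), edgeR adjusted p = 7.29e-07). In T cells Il1r1 was 163 and 64.8 CPM in the Ctrl mice, 57.5 and 51.6 in the Pre-T mice and 362 and 555 in the Post-T mice, and rose in Post-T against Pre-T (log2 fold change 3.33 ± 0.42 (SE), edgeR adjusted p = 7.32e-06). Both Post-T mice were highest in each class, and Post-T 2 was above Post-T 1. In monocytes Il1r1 also rose, to 86.2 and 311 CPM in the Post-T mice (Post-T against Pre-T, edgeR adjusted p = 1.37e-06). Most B and T nuclei of Post-T 2 lay in clusters with Cyp2a5 among their leading genes. The part of RNA from other cells in Il1r1 was not tested. Of 16 genes for proteins that bind or cut chemokines, tested 101 times, 5 tests rose and 4 fell in Pre-T against Ctrl, 4 fell in Post-T against Ctrl and 1 fell in Post-T against Pre-T (median -0.07, -0.22 and -0.01), with the same shares over all genes. DESeq2 called 9, 10 and 5. Mmp12, a macrophage protease that trims chemokines, was 0 and 1.28 CPM in the Ctrl mice, 41.7 and 35.8 in the Pre-T mice and 0 and 0 in the Post-T mice in fibroblasts (Pre-T against Ctrl, edgeR adjusted p = 0.00230). Mmp12 was 0 and 2.28 CPM in the Ctrl mice, 57.0 and 83.9 in the Pre-T mice and 0 and 0 in the Post-T mice in B cells (adjusted p = 2.08e-05) and 0 and 0 CPM in the Ctrl mice, 40.0 and 40.9 in the Pre-T mice and 0 and 4.17 in the Post-T mice in T cells (adjusted p = 0.00251). The Pre-T mice were highest in all 3 classes. The macrophage markers given above were also highest in both Pre-T mice in fibroblasts and T cells, but in B cells only Pre-T 2 stood above the rest, and their part was not tested. Of 5 chemokine or receptor-like genes under other symbols (Pf4, Ppbp, Ccrl2, Cmklr1 and Cklf), tested 30 times, edgeR called 0 in each comparison, with 4, 1 and 2 tests at an unadjusted p under 0.05, 0 by DESeq2 and medians of 0.49, 0.47 and -0.49.

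The position of the genes limits some values. Of the 67 members, 60 lay on chromosomes, with 14 on chromosome 9, 14 on chromosome 11 and 10 on chromosome 5, and 7 on unplaced scaffolds (GENCODE vM21, GRCm38). Ccr3 and Ccr2 are neighbors on chromosome 9, as are Cxcl9 and Cxcl10 on chromosome 5. Of the 46 described members, 3 overlapped another gene on the same strand, 13 on the opposite strand only and 30 none. Cx3cr1 shares its strand and span with Gorasp1, Csrnp1 and Xirp1, Ackr1 with Cadm3 and Ccr9 with Gm17200. Whether the counting used strand is not given in the sources used here, so reads of such pairs may be mixed. Opposite to Ccl25 lies Elavl1, at 95.0 to 140.0 CPM in hepatocytes, and opposite to Ackr4 lies Acad11, at 100.4 to 291 CPM. Cxcl17 averaged 5.71 CPM in hepatocytes, while 4732471J01Rik on its other strand lay at 76.2 to 154 CPM. Likewise Ccl27a averaged 6.89 CPM, while Il11ra1 on its other strand lay at 12.9 to 70.2 CPM. Opposite to Cxcr5 lies Bcl9l, at 47.1 to 151 CPM, and opposite to Cxcr6 lies Fyco1, at 84.5 to 182 CPM. Cxcr5 and Cxcr6 UMIs were found in 1.53% to 16.2% and 0.783% to 3.43% of hepatocytes, which are not known to carry these receptors. Ccl19, Ccl21a and Ccl27a have near-identical copies in the list. These copies held no UMI, and reads shared between copies could have been dropped.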

How the data were processed

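Single nuclei RNA sequencing was performed on snap-frozen livers of 6 male mice, 2 per group, with 3′ libraries (10x Next GEM v3.1). The authors deposited raw UMI counts per gene and barcode, made with Cell Ranger 6.1.1 on mm10 per the submitters' processing notes. Intron and strand settings are not given in the sources used here.

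Following the study's filter, barcodes with over 200 and under 5000 genes and under 5% mitochondrial UMIs were kept. Nuclei were clustered with scanpy 1.11.5 (Leiden, 2000 variable genes without the members, 30 principal components, 15 neighbours, resolution 1, immune clusters again at 2). A cluster was named from at least 3 markers of its class, and left unnamed where it carried markers of 2 classes, was led by genes of another class or by proliferation genes, or had low depth. No doublet caller was run.

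Counts were summed per mouse over all nuclei, over the named immune nuclei and over each class, and tested with edgeR 4.0.16 (quasi-likelihood, TMM, all 6 mice, 3 residual degrees of freedom). Genes with at least 10 counts (classes 3) were tested, and p-values were adjusted by Benjamini-Hochberg over all of them with a threshold of 0.05. The test was checked on simulated data with known changes. False calls numbered 40 to 77 among 17882 genes in endothelial cells, 43 to 61 among 18930 in fibroblasts and 43 to 49 among 17013 in macrophages. At the other levels they numbered 1 to 27. In all nuclei 22% to 43% of 4-fold and 65% to 73% of 8-fold changes were recovered. Within the classes these shares were 34% to 86% and 71% to 96%. Replicates are separate mice. Ratios on 1 to 3 UMIs have exact conditional intervals, which cover counting error only, and a group without UMIs was set to 3 counts.

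Alternatives were DESeq2 1.42.0, no TMM, no filter, the replicate number as a block, only the 4 mice compared, each mouse left out, all barcodes, each nucleus named on its own, and thinning to 500 UMIs. A crossed block, ranking over the 7 tested classes and the joint fit of macrophages and monocytes were added after seeing the data. Same-numbered mice of different groups did not deviate together (correlations -0.137 to 0.103), so the numbers were not taken as pairs.

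Values in every mouse are given for members past the threshold anywhere and for the up to 5 members with most UMIs in each role. For each list of pathway genes the examples are the up to 3 called tests with the smallest p. The members and lists were chosen with earlier results of these data known. Class sizes ranged from 17 nuclei (B cells, Post-T 1) to 2749 (hepatocytes, Ctrl 1). A member that is counted in the totals is not reported here.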

Additional observations from a re-analysis of the deposited data

Results flagged for a closer look

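The changes of Ccl9 and Ccr2 differed between macrophages and monocytes under the same contrast, and no other pair of classes was tested. For Ccl9 in Pre-T against Ctrl the log2 fold change was 3.13 in macrophages and -0.26 in monocytes (edgeR adjusted p = 0.889 there), and the difference passed in the joint fit (3.32, adjusted p = 0.00565). Ccl9 was also positive, without passing, in endothelial cells (1.16), fibroblasts (0.80), T cells (2.08) and B cells (1.19), and slightly negative in hepatocytes (-0.09).

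For Ccr2 in Post-T against Ctrl the fitted value was 7.77 in macrophages, where Ctrl held no UMI, so that it depends on the prior count and stands for at least 5.91-fold. In monocytes Ccr2 was at -1.96 (edgeR adjusted p = 5.18e-05), and the difference passed in the joint fit (adjusted p = 8.45e-11). In fibroblasts both Post-T mice were at 0 against 4.32 and 1.92 CPM in the Ctrl mice, the opposite direction (edgeR adjusted p = 0.395), and the difference between macrophages and fibroblasts was not tested. Ccr2 was positive without passing in endothelial cells (1.09) and hepatocytes (1.14), and negative without passing in B cells (-2.91).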

How the results depend on the processing

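Counts of members past the threshold moved with the processing. Calls over all genes are not given for these settings, so the counts have no background rate beside them. Counts are given in the order Pre-T/Ctrl, Post-T/Ctrl and Post-T/Pre-T. In all nuclei DESeq2 gave 14, 10 and 19 calls in place of 0, 2 and 0. Without a filter on low counts there were 2 in the first and 2 in the last, with only the 4 mice compared 10 in the first and 0 in the second, without TMM 1 in the last, and with the replicate block 0 in the second, crossed or not. In pooled immune nuclei (2, 5 and 0 calls) no filter gave 11, 10 and 3, DESeq2 7 in the first and 3 in the last, the replicate block 0 and 0 in the first and second, the crossed block 5 in the first, the 4 mice compared 13 and 0, and naming each nucleus on its own 2 in the second. Within classes (24, 11 and 8 calls) no filter gave 39, 35 and 25, DESeq2 15 in the first, no TMM 21 (10 higher and 11 lower) and 16 (3 higher and 13 lower) in the second and last, the replicate block 20 in the second, the crossed block 25 and 19, the 4 mice compared 6 in the second, and naming each nucleus on its own 21 and 13. The causes were not tested. With all deposited barcodes the counts in all nuclei were 0, 3 and 0.

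Leaving out 1 mouse gave 0 to 12, 0 to 12 and 0 to 11 calls in all nuclei, 0 to 14, 0 to 11 and 0 to 2 in pooled immune nuclei, and 2 to 35, 3 to 27 and 5 to 16 within classes. The log2 fold change of Cxcl13 ran from -4.51 to 5.04 in T cells and from -2.85 to 5.69 in monocytes against Pre-T, and from -4.36 to 6.21 in fibroblasts and from -3.72 to 7.90 in monocytes against Ctrl, and was reversed without Post-T 1. Of the 52 calls, 51 stayed past the threshold without TMM, 49 without the filter, 41 with the replicate block, 50 with the crossed block, 32 with the 4 mice compared and 30 with DESeq2. Without Ctrl 1 only 9 of the 52 did. The same numbers of mice in different groups were not paired by the labels, and the crossed block was tried because the correlation of Ctrl with Pre-T was -0.137 in pooled immune nuclei. No TMM moved the median log2 fold change of all genes in all nuclei from -0.01, 0.0038 and -0.07 to 0.32, -0.13 and -0.53, and that of the members from 1.58, 0.21 and -1.63 to 1.89, 0.07 and -2.03. Naming each nucleus on its own left too few hepatocytes to test them, with 60 and 164 in the Ctrl mice, 0 and 9 in the Pre-T mice and 0 and 1 in the Post-T mice. It also let conventional and plasmacytoid dendritic cells be tested, so its class counts cover another set of classes. Thinning moved the share of nuclei with a UMI by more than the spread between mice for 19 of 46 members. With 2 mice per group and as few as 17 nuclei in a class, calls on low counts are limited by depth.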

Other observations

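Neutrophils, with 4 to 27 nuclei per mouse, were too few to test. Cxcr2, their receptor for Cxcl1, Cxcl2 and Cxcl5, averaged 177 ± 49.3 CPM (SD) over the 3 mice with more than 10 such nuclei, on 18 UMIs over all 6 mice. Cxcl2 was found in neutrophils of the Pre-T mice, at 489 and 228 CPM on 18 and 5 UMIs, and had no UMI in those of the other 4 mice, where 4 to 16 nuclei do not allow a comparison. Ccr1, a receptor of Ccl6 and Ccl9, averaged 155 ± 40.3 CPM over the same 3 mice.

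Mesothelial cells, which line the liver surface, carried Ackr3 at 52.0 and 77.1 CPM in the Ctrl mice and at 175 CPM in Pre-T 1, on 29, 33 and 15 UMIs. The other mice had 0 to 4 mesothelial nuclei. In plasmacytoid dendritic cells Ccr9 lay between 246 and 528 CPM in every mouse, on 6 to 35 UMIs, without an order of the groups.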
